A study of Mus musculus with 6 samples.

Results

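The distal chromosome 8 genes are the protein-coding genes that start at or after position 90000000 of mouse chromosome 8 (GRCm38, GENCODE M21) and run to its end. A gene was a member when its mean over all 6 libraries was at least 0.5 TPM, a length-scaled share of all transcripts in a library. Plekhg4, Calb2, cytosolic ribosomal protein genes, Cox4i genes and homeobox genes were left out by name. Of 385 protein-coding genes of the region, 8 were left out by name, 113 others were under the minimum (31 of them listed at 0 in every library) and 264 were members, of 14156 genes tested in all. The members were thus chosen by position and by the mean TPM over all 6 libraries. The region and the names left out were set with earlier results of these data known, and Plekhg4 and Calb2 are genes whose libraries differed between groups. At the minimum, Jph3 with a mean of 0.517 TPM was the lowest member, and Nrp1 with 0.485 TPM was the highest gene outside. At the boundary, Chd9 (from 90828352) was the first member, and Sall1 (from 89027235) was the last protein-coding gene of at least 0.5 TPM before it.

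RBBP4 and RBBP7 are closely related WD-repeat proteins that bind histone H3 and H4 and are shared subunits of several chromatin complexes, among them the PRC2 methyltransferase, the NuRD and SIN3 deacetylase complexes and the CAF-1 histone chaperone. The distal end of chromosome 8 is not a pathway. It is a gene-dense stretch in which housekeeping genes for protein turnover, vesicle traffic, RNA processing and metabolism lie next to tissue genes such as cadherins, so its genes are usually studied one by one. What the members share is their place on one chromosome.

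All 6 libraries were poly(A) RNA of 46C mouse embryonic stem cells (mESCs), a line grown here in serum and LIF with the inhibitors Chir99021 and PD0325901 and given no other treatment. The control cells stably expressed the biotin tag alone, the Rbbp4 OE cells biotin-Rbbp4 and the Rbbp7 OE cells biotin-Rbbp7, with 2 libraries each. By the study's methods, every group first received the biotin ligase birA by lentivirus and blasticidin selection, and then its tag vector under puromycin selection. Each group is therefore 1 selected cell population, so the transgene and other properties of that population cannot be told apart. The labels do not say that the 2 libraries of a group came from separate cultures, and the p-values measure only the spread between these libraries. These libraries hold no DNA, so the copy number of the region in each population is unknown here. The study also sequenced DNA of biotin-RBBP4 and biotin-RBBP7 cells by ChIP-seq, which was not used here.

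Rbbp4 rose in Rbbp4 OE (log2 fold change 0.88, limma adjusted p = 0.00173) and Rbbp7 rose in Rbbp7 OE (1.63, limma adjusted p = 2.27e-04). The summed level of 8 embryonic stem cell markers was 7621 to 8573 TPM in all 6 libraries. Pou5f1, Nanog and Sox2 were high in each. Most of the sum was Dppa5a (4166 to 5134 TPM). In both Rbbp4 OE libraries, Nanog, Esrrb, Klf4 and Tfcp2l1 were below both controls, while Pou5f1 and Dppa5a were above both. Sox2 and Zfp42 overlapped the controls there. A pair of libraries stood apart. Rbbp4 OE replicate 2 held liver transcripts, with a summed 422 TPM over 10 liver markers against 8.80 to 11.2 TPM in the others, and Rbbp7 OE replicate 1 held fibroblast transcripts, with 8.71 TPM over 6 markers against 0.22 to 1.71 TPM. Most of the fibroblast sum in Rbbp7 OE replicate 1 was Col3a1 (6.39 TPM). Col1a2 was also highest there. Col1a1 was slightly higher in Rbbp7 OE replicate 2 (0.86 against 0.81 TPM), and Dcn was highest in Rbbp4 OE replicate 2 (0.36 TPM). Of the fibroblast markers, Lum and Postn were listed at 0 in every library. Among these markers, the label of fibroblast transcripts used below for Rbbp7 OE replicate 1 thus rests mainly on Col3a1. TPM keeps no sequencing depth, so depth is unknown here and no counting interval is given.

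Some members were high in Rbbp4 OE replicate 2 or Rbbp7 OE replicate 1 alone, and they are named here after their values were seen. Whether they share the source of the liver or fibroblast transcripts was not tested. Hp, the liver plasma protein haptoglobin, had 103 TPM in Rbbp4 OE replicate 2 and at most 0.08 TPM in each other library. Tat, a liver enzyme of tyrosine breakdown, had 4.92 TPM there and at most 0.19 TPM elsewhere, and Osgin1 had 3.58 TPM there. Mmp2, a matrix metalloprotease of stromal cells, had 9.09 TPM in Rbbp7 OE replicate 1 and 0.70 to 1.57 TPM elsewhere. Mlkl, the effector of necroptosis, had 8.42 TPM and Cdh13, a cadherin without a cytoplasmic tail, had 2.57 TPM in that same library. Hp, Tat, Osgin1, Mlkl and Cdh13 reached the minimum mean TPM only through the library in which they were high. None of these 6 genes passed the test in either comparison with control.

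As a group, the distal genes were lower in both overexpression lines than in control. The members' TPM summed to 14240 and 14230 in the control libraries, to 11140 and 11540 in those of Rbbp4 OE and to 11390 and 11410 in those of Rbbp7 OE. All 4 overexpression libraries lay below both controls, and the Rbbp7 OE sums lay within the range of the Rbbp4 OE sums. Such sums weigh abundant members most, so they do not rank the lines against each other. The abundant Mt1 and Mt2 were low in Rbbp7 OE and near the control level in Rbbp4 OE, and Hp added 103 TPM to Rbbp4 OE replicate 2. In bulk RNA, fewer cells that express a gene and less of its RNA per cell cannot be told apart. Differences between groups are given below as log2 fold changes of TPM + 1, which understates the change of low genes.

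In Rbbp4 OE, the median log2 fold change of the 264 members was -0.37 (quartiles -0.58 and -0.08), beside -0.08 over all 14156 genes, -0.08 over the 400 protein-coding genes of chromosome 8 before the region and -0.09 over the 11719 protein-coding genes of other chromosomes. In Rbbp7 OE, the members' median was -0.25 (quartiles -0.38 and -0.03), beside -0.0037, -0.0175 and -0.00584 over the same 3 sets. Both lines were compared with the same control libraries, so these values are not independent of each other. Taken library by library against the mean of the controls, the member median minus that of the other chromosomes was -0.29 and -0.26 for the Rbbp4 OE libraries and -0.25 and -0.23 for the Rbbp7 OE libraries. The controls lay within 0.00285 of 0 on this measure, and the proximal genes of chromosome 8 within 0.0172 in every library. Over 19 other chromosomes, the medians ran from -0.18 (chromosome 6) to 0.00205 (chromosome 7) for Rbbp4 OE and from -0.06 (chromosome 6) to 0.02 (chromosome 15) for Rbbp7 OE. The 30 non-coding genes and pseudogenes of the region had medians of -0.11 and -0.02, beside 0.06 and 0.03 over all 1764 such genes tested.

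**Figure D1:**
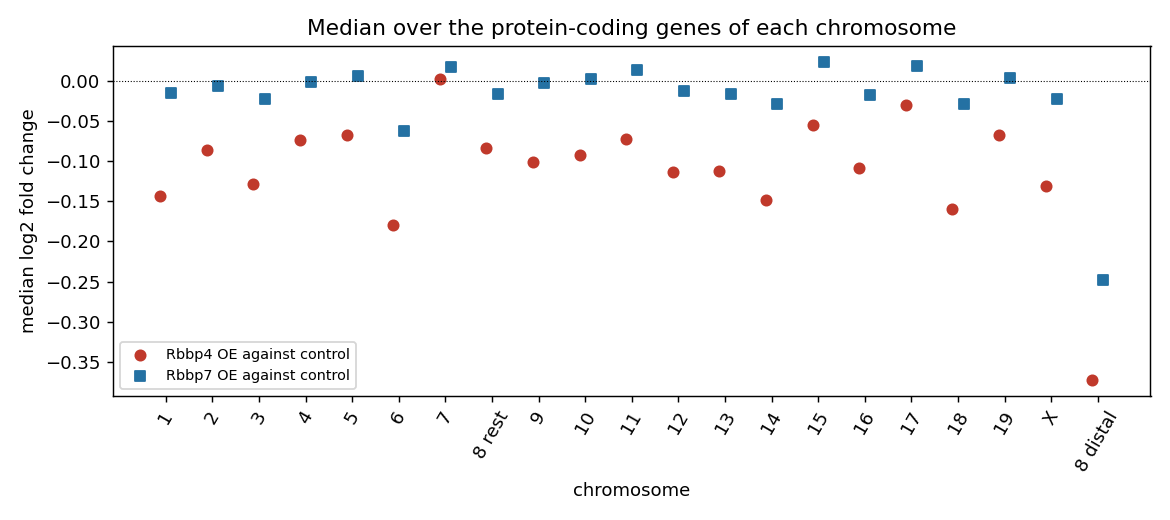
Median log2 fold change (vertical axis) over the tested protein-coding genes of each chromosome (horizontal axis), as circles for Rbbp4 OE and squares for Rbbp7 OE against control. The distal members of chromosome 8 are shown apart from its other genes, at -0.37 and -0.25, while the rest of chromosome 8 lay at -0.08 and -0.02.

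The lower levels ran along the whole region. In windows of 5 Mb, the members' medians ran from -0.22 to -0.43 for Rbbp4 OE and from -0.175 to -0.35 for Rbbp7 OE, and all 8 windows were below 0 in both. The smallest differences, -0.22 and -0.175, came from the 28 members of the window from 115 to 120 Mb. The largest in Rbbp4 OE, -0.43, came from 8 members between 100 and 105 Mb. Before the region, the 30 genes between 85 and 90 Mb had medians of -0.35 and -0.18, close to the members. The 370 genes before 85 Mb had -0.08 and -0.01. Most 5 Mb windows before the region were also below 0 in both lines. Before 85 Mb their medians ran from 0.125 (6 genes from 55 Mb) to -0.39 (17 genes from 45 Mb) for Rbbp4 OE. For Rbbp7 OE they ran from 0.08 (15 genes from 40 Mb) to -0.17 (5 genes from 35 Mb). The windows from 5 Mb (-0.24, 4 genes), 35 Mb (-0.38, 5 genes) and 45 Mb thus lay within the members' range in Rbbp4 OE. The boundary of 90 Mb that defines the members is therefore not where the levels stepped.

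Across the genome, 223 windows of 10 Mb held at least 15 protein-coding genes. The windows of chromosome 8 from 90, 100, 110 and 120 Mb ranked 2, 3, 4 and 1 from the lowest in Rbbp7 OE, and the lowest median elsewhere was -0.19 (chromosome 4, from 50 Mb). In Rbbp4 OE they ranked 10, 4, 22 and 2, and the lowest median elsewhere, -0.43 in the same chromosome 4 window, was lower than any of them. Single windows as low as those of the region thus occurred on other chromosomes in Rbbp4 OE.

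**Figure D2:**
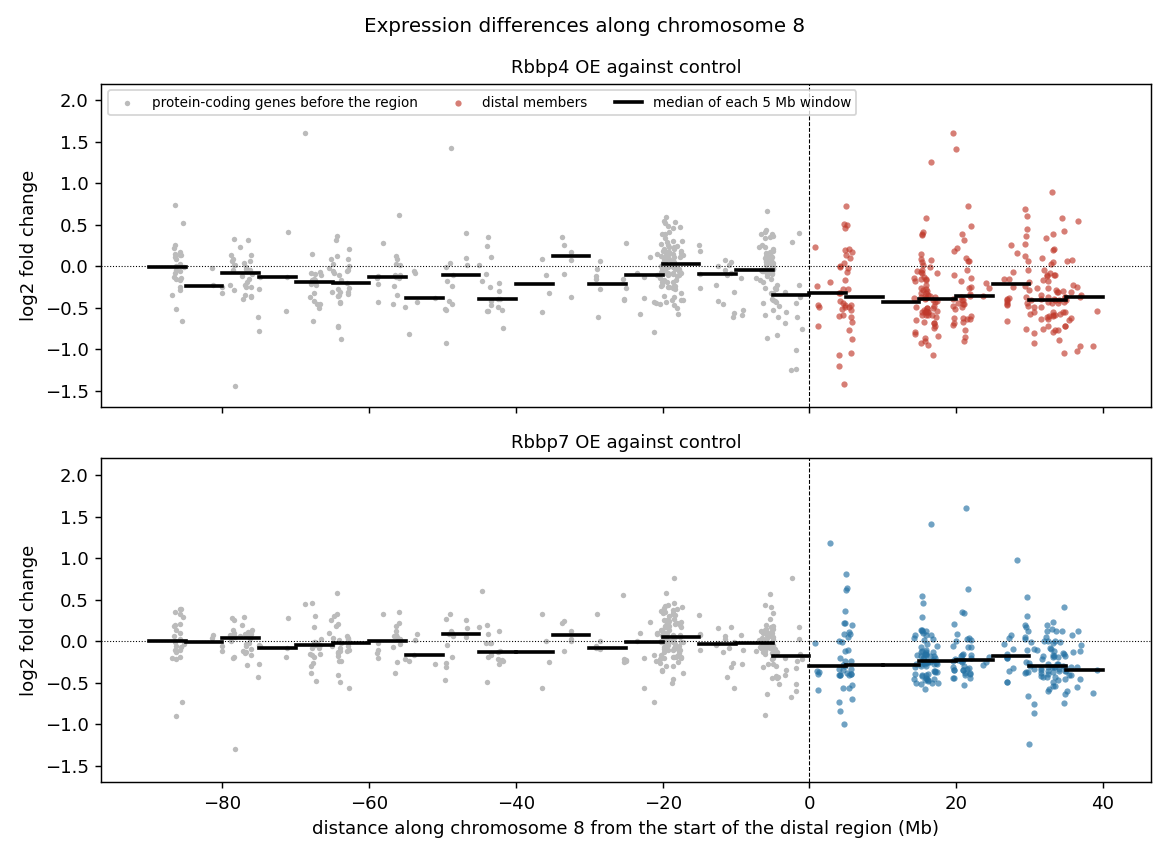
Log2 fold change of each tested protein-coding gene of chromosome 8 (vertical axis) by its distance from the start of the distal region in Mb (horizontal axis, negative before it), for Rbbp4 OE (upper) and Rbbp7 OE (lower) against control. Black bars are medians of 5 Mb windows, and values beyond 1.6 are drawn at 1.6. The 8 window medians after 0 are all below 0, as are most window medians before it.

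Gene by gene, 98 of the 264 members (37.1%) were lower in Rbbp4 OE at a limma adjusted p under 0.05, beside 8.07% of all genes tested, and 3 (Adgrg1, Kifc3 and Irf2bp2) were higher, beside 3.29%. The 98 had log2 fold changes from -1.42 to -0.25 with a median of -0.59. At the study's thresholds, an adjusted p under 0.01 and a fold over 2, 3 members passed (Ttc13, Ogfod1 and a gene entry named Chtf8), all lower, beside 0.516% of all genes. Both Rbbp4 OE libraries were below both controls for 177 members (67%, beside 37.1% of all genes) and above both for 29 (beside 20.8%). The log2 fold change was below 0 for 210 members, beside 59.0% of all genes. At an unadjusted p under 0.05, 144 members were lower (beside 20.6%) and 12 higher (beside 9.01%).

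The count of 98 depended on the replicates. Fits that left out 1 library gave 79 lower members without control replicate 1, 22 without control replicate 2, 6 without Rbbp4 OE replicate 1, 0 without Rbbp4 OE replicate 2 (the library with liver transcripts), 16 without Rbbp7 OE replicate 1 and 16 without Rbbp7 OE replicate 2. In such fits a group of 1 library is assumed to vary like the others. The member median stayed between -0.32 and -0.43 in them, and was -0.39 without Rbbp4 OE replicate 2.

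In Rbbp7 OE, 8 members were lower at a limma adjusted p under 0.05 (3.03%, beside 0.29% of all genes): Gins2, Aprt, Gcsh, Psmd7, Got2, Ttc13, E2f4 and Gnpat. No member was higher, beside 0.198% of all genes. None passed the study's thresholds with limma (0, beside 0.0353% of all genes), while at an unadjusted p under 0.05, 103 members were lower (beside 8.14%) and 8 higher (beside 7.26%). The log2 fold change was below 0 for 205 members, beside 50.7% of all genes. Both Rbbp7 OE libraries were below both controls for 163 members (61.7%, beside 23.4% of all genes) and above both for 20 (beside 21.2%). With 1 library left out, the 8 became 2 without Rbbp7 OE replicate 2 and 0 without any other, and the median lay between -0.18 and -0.29, at -0.25 without Rbbp7 OE replicate 1, the library with fibroblast transcripts.

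The 2 lines were also compared directly. Rbbp4 OE was below Rbbp7 OE with a member median of -0.13, beside -0.08 over all genes. Rescaling the libraries by median-of-ratios brought the members to -0.04 and all genes to 0. Only the Chtf8 entry ENSMUSG00000117748.1 passed an adjusted p under 0.05 (1 lower, beside 0.127% of all genes, and 0 higher, beside 0.177%), and 0 members passed the study's thresholds with limma, beside 0.0494% of all genes. At an unadjusted p under 0.05, 61 members were lower (beside 14.1%) and 9 higher (beside 4.91%) in Rbbp4 OE, and 187 had a difference below 0, beside 63.3% of all genes. The libraries of the lines did not overlap for 131 members lower (beside 38.6%) and 33 higher (beside 16.1%) in Rbbp4 OE.

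The difference from control varied with the level of the gene. Over the 66 members with a mean of 0.5 to 5 TPM the medians were -0.02 for Rbbp4 OE and -0.01 for Rbbp7 OE, and they were -0.02 in both with a pseudocount of 0.1 in place of 1. Between 5 and 20 TPM, 81 members had medians of -0.39 and -0.20. Between 20 and 100 TPM, 84 members had -0.49 and -0.34, with 81 of the 84 below 0 in Rbbp4 OE. The 33 members at 100 TPM or more had -0.34 and -0.32. Protein-coding genes of other chromosomes at the same 4 levels had medians between -0.14 and -0.01 for Rbbp4 OE and between -0.02 and 0.02 for Rbbp7 OE. The lower levels were thus a pattern of members above 5 TPM, and the low members scattered around 0.

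**Figure D3:**
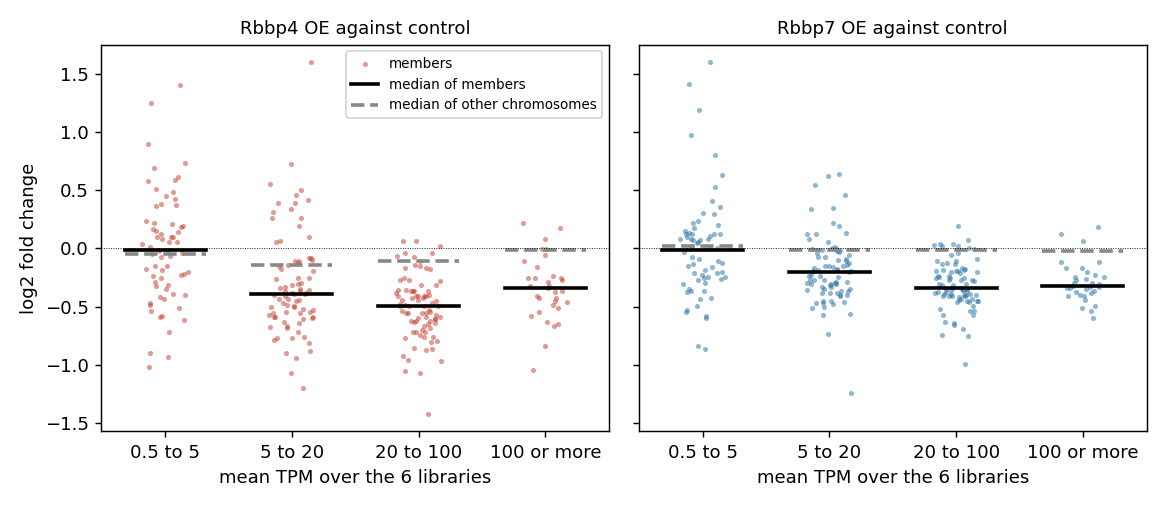
Log2 fold change (vertical axis) of each member by its mean TPM class (horizontal axis), for Rbbp4 OE (left) and Rbbp7 OE (right) against control. Solid bars are member medians, dashed bars the medians of protein-coding genes of other chromosomes, and values above 1.6 are drawn at 1.6. The solid bars lie below the dashed ones in the 3 classes from 5 TPM upward.

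RefSeq held 235 promoter windows (250 bases before to 50 bases after the start, GRCm38.p6) for 200 of the members. The 250 bases before the start are printed for members of different response, Ttc13, Gcsh and Got2, which were lower in both lines, and Irf2bp2, which was higher in Rbbp4 OE. They are read on the gene's own strand, the minus strand for each, from chr8:124721973-124722222, chr8:116993499-116993748, chr8:95888402-95888651 and chr8:126593987-126594236 in that order. The start is that of RefSeq, and by the GENCODE coordinates the windows of Ttc13, Gcsh and Got2 lie partly inside the gene. Capitals mark matches, on either strand, to 5 short motifs: the CCAAT box, the GC box GGGCGG, the ETS-type CCGGAAG, the cAMP element TGACGTCA and the TATA-type TATAAA.
Ttc13: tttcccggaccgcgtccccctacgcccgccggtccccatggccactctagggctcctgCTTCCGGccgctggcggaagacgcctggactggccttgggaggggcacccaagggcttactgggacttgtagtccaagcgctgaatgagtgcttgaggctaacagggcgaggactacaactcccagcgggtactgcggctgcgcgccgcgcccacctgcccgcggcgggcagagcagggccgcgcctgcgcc
Gcsh: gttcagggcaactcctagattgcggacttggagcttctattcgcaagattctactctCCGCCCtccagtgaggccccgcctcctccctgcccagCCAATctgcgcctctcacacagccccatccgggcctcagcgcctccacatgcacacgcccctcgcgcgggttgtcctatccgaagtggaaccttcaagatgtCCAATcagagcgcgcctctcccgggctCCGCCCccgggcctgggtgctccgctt
Got2: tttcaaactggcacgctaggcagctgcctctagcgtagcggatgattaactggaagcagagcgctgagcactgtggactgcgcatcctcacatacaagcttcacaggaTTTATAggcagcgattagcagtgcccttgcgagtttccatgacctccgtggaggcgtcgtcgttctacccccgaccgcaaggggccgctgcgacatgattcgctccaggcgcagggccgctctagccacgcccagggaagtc
Irf2bp2: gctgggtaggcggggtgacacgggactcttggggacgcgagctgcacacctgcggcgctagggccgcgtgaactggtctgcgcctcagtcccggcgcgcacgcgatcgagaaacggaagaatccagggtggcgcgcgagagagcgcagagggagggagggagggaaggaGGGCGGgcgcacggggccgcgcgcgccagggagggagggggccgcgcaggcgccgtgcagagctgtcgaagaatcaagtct
Ttc13 had 1 ETS-type match, Gcsh 2 CCAAT boxes and 2 GC boxes, Got2 a TATA-type match and Irf2bp2 a GC box, so the lower members shown had no motif in common. Over all members' windows, 66.8% held the GC box, 22.6% the ETS-type motif, 31.9% the CCAAT box and 7.66% the TATA-type motif. The shares over all 32851 mouse windows, which include genes not expressed here, were 35.7%, 8.86%, 37.4% and 13.6%. The ETS-type motif was in 32.3% of the 96 windows of members that were lower in Rbbp4 OE, and the GC box in 67.7%. The cAMP element was in 3.4% of members' windows and 1.79% of all windows. Members' windows held a median of 23 CG dinucleotides, against 7 over all windows.

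Members are described below by function. Counts in each list are of members at a limma adjusted p under 0.05 and stand beside the 8.07% of all genes that were lower in Rbbp4 OE and the 0.29% in Rbbp7 OE, and list medians stand beside -0.08 and -0.0037 over all genes. In each pair of medians, Rbbp4 OE comes first. Over all 264 members, 37.1% and 3.03% were lower in Rbbp4 OE and Rbbp7 OE, with medians of -0.37 and -0.25.

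Several proteasome and protein quality control genes were lower. Psmd7, a lid subunit of the proteasome's regulatory particle (ENSMUSG00000039067.5, chr8:107580381-107588464), had 323 and 315 TPM in the controls, with 181 and 175 TPM in Rbbp4 OE libraries and 232 and 216 TPM in Rbbp7 OE libraries. The 3 groups did not overlap, with Rbbp4 OE lowest. Its level fell in Rbbp4 OE (log2 fold change -0.84, SE 0.055, limma adjusted p = 0.00281) and in Rbbp7 OE (log2 fold change -0.51, SE 0.055, limma adjusted p = 0.0329). Psmb10, a catalytic subunit of the immunoproteasome, had 41.97 and 39.02 TPM in the control libraries, 29.4 and 24.1 TPM in those of Rbbp4 OE and 29.1 and 29.6 TPM in those of Rbbp7 OE, and it fell in Rbbp4 OE (log2 fold change -0.59, SE 0.11, limma adjusted p = 0.028). Of 14 members in the list of proteasome, ubiquitin and endoplasmic reticulum quality control genes, 5 were lower in Rbbp4 OE (Psmd7, Psmb10, Wwp2, Emc8 and Fbxo31) and 1 in Rbbp7 OE (Psmd7), with medians of -0.43 and -0.28.

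Metabolic enzymes supplied 4 of the 8 members lower in Rbbp7 OE. Gcsh, the lipoyl carrier protein of the glycine cleavage system (ENSMUSG00000034424.5, chr8:116981810-116993537), had 246 and 253 TPM in the controls, with 155 and 161 TPM in Rbbp4 OE libraries and 173 and 180.4 TPM in Rbbp7 OE libraries. Got2, the mitochondrial aspartate aminotransferase (ENSMUSG00000031672.8, chr8:95864134-95888547), had 199.5 and 216 TPM in the control libraries, 130.1 and 130.1 TPM in those of Rbbp4 OE and 144 and 142 TPM in those of Rbbp7 OE. For both genes every overexpression library was below both controls. Gcsh fell in Rbbp4 OE (log2 fold change -0.65, SE 0.052, limma adjusted p = 0.00508) and in Rbbp7 OE (log2 fold change -0.49, SE 0.052, limma adjusted p = 0.0329), and Got2 likewise fell in both (log2 fold change -0.67, SE 0.057, limma adjusted p = 0.00572 in Rbbp4 OE and log2 fold change -0.53, SE 0.057, limma adjusted p = 0.0329 in Rbbp7 OE).

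Aprt, which salvages adenine (ENSMUSG00000006589.8, chr8:122574635-122576909), had 355 and 329 TPM in the controls, with 263 and 265 TPM in Rbbp4 OE libraries and 216 and 234 TPM in Rbbp7 OE libraries. In contrast to the genes above, its Rbbp7 OE libraries were below its Rbbp4 OE libraries. Aprt fell in Rbbp4 OE (log2 fold change -0.37, SE 0.062, limma adjusted p = 0.0208) and in Rbbp7 OE (log2 fold change -0.60, SE 0.062, limma adjusted p = 0.0314), while the direct difference between the lines did not pass (log2 fold change 0.23, SE 0.062, limma adjusted p = 0.157). Gnpat, the peroxisomal enzyme that starts ether lipid synthesis, had 85.2 and 86.04 TPM in the control libraries, 52.6 and 50.8 TPM in those of Rbbp4 OE and 58.4 and 50.9 TPM in those of Rbbp7 OE, and it fell in both lines (limma adjusted p = 0.00946 and 0.0474). Its Rbbp4 OE and Rbbp7 OE libraries overlapped each other below the controls. Nqo1, a quinone reductase, had 47.9 and 45.8 TPM in the controls, with 43.8 and 44.8 TPM in Rbbp4 OE libraries and 43.8 and 46.3 TPM in Rbbp7 OE libraries, with log2 fold changes of -0.08 and -0.05 that did not pass. The sign for Nqo1 in Rbbp4 OE turned under median-of-ratios scaling and quantile normalization. Among 20 metabolic members, 9 were lower in Rbbp4 OE and 4 in Rbbp7 OE (Gcsh, Got2, Aprt and Gnpat), with medians of -0.45 and -0.33. The 9 also held Dhodh (pyrimidine synthesis, -0.70), Mvd (sterol synthesis, -0.61), Cyb5b (-0.72), Pla2g15 (-0.55) and Galnt2.

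Galnt2, a transferase that starts mucin-type O-glycosylation, had 35.97 and 37.7 TPM in the control libraries, 23.9 and 24.8 TPM in those of Rbbp4 OE and 37.5 and 35.7 TPM in those of Rbbp7 OE. Its Rbbp7 OE libraries lay at the control level, and it fell in Rbbp4 OE (log2 fold change -0.58, SE 0.077, limma adjusted p = 0.0132). The direct difference between the lines did not pass (log2 fold change -0.57, limma adjusted p = 0.0753). Galnt2 shares most of its exonic bases with Gm20388, a predicted gene on the same strand that spans several Mb (chr8:119910841-124345722), and their levels are therefore uncertain. Gm20388 had 19.4 and 19.6 TPM in the controls, with 17.1 and 16.8 TPM in Rbbp4 OE libraries and 6.06 and 9.68 TPM in Rbbp7 OE libraries, low in the Rbbp7 OE libraries, and it did not pass (log2 fold change -1.24, SE 0.19, limma adjusted p = 0.074).

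Genes of DNA replication and the cell cycle were lower at several points. Gins2, a subunit of the GINS complex of the replicative helicase (ENSMUSG00000031821.11, chr8:120578633-120589304), had 126 and 114 TPM in the control libraries, 69.4 and 67.3 TPM in those of Rbbp4 OE and 69.2 and 72.1 TPM in those of Rbbp7 OE. The libraries of both lines lay together, well under the controls. Gins2 fell in Rbbp4 OE (log2 fold change -0.80, SE 0.072, limma adjusted p = 0.00577) and in Rbbp7 OE (log2 fold change -0.75, SE 0.072, limma adjusted p = 0.0289). It shares 67.3% of its exonic bases with the opposite-strand gene Gse1, and strand use in counting is not given in the sources used here.

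Cdt1, a licensing factor that loads the helicase, had 185 and 191 TPM in the controls, with 136 and 143 TPM in Rbbp4 OE libraries and 153 and 158 TPM in Rbbp7 OE libraries, and it fell in Rbbp4 OE (log2 fold change -0.43, SE 0.055, limma adjusted p = 0.012). Another GINS subunit, Gins3, had 10.6 and 13.03 TPM in the control libraries, 7.53 and 8.96 TPM in those of Rbbp4 OE and 10.04 and 9.61 TPM in those of Rbbp7 OE, and it did not pass (log2 fold change -0.47, SE 0.15, limma adjusted p = 0.0917). The kinetochore genes differed, with Cenpn lower in Rbbp4 OE (log2 fold change -0.41, SE 0.084, limma adjusted p = 0.0343) and Cenpt not past the test (log2 fold change -0.16, SE 0.07, limma adjusted p = 0.18). E2f4, a transcription factor that represses cell cycle genes with pocket proteins (ENSMUSG00000014859.9, chr8:105297663-105305370), had 211 and 211 TPM in the controls, with 141 and 140.3 TPM in Rbbp4 OE libraries and 156 and 162 TPM in Rbbp7 OE libraries. Its libraries hardly varied within a group, and E2f4 fell in Rbbp4 OE (log2 fold change -0.58, SE 0.049, limma adjusted p = 0.00552) and in Rbbp7 OE (log2 fold change -0.41, SE 0.049, limma adjusted p = 0.0426).

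A pair of gene entries carry the name Chtf8, a subunit of the alternative clamp loader that acts at replication forks. They share exons on the same strand, so their separate levels are uncertain. The entry ENSMUSG00000117748.1 (chr8:106883890-106893593) had 37.4 and 36.9 TPM in the control libraries, 18.2 and 16.1 TPM in those of Rbbp4 OE and 35.5 and 40.1 TPM in those of Rbbp7 OE. Only the Rbbp4 OE libraries were low, and the Rbbp7 OE libraries lay on either side of the controls. It fell in Rbbp4 OE (log2 fold change -1.07, SE 0.1, limma adjusted p = 0.00654) and was the member below Rbbp7 OE in the direct comparison (log2 fold change -1.10, SE 0.1, limma adjusted p = 0.0239). The other entry, ENSMUSG00000046691.14, had 66.2 and 69.2 TPM in the controls, with 50.4 and 51.1 TPM in Rbbp4 OE libraries and 67.2 and 56.4 TPM in Rbbp7 OE libraries, a smaller decrease in Rbbp4 OE (log2 fold change -0.41, SE 0.095, limma adjusted p = 0.0468). In the list of replication, centromere and genome repair genes, 11 entries for 10 symbols were members, of which 6 were lower in Rbbp4 OE and 1 (Gins2) in Rbbp7 OE, with medians of -0.43 and -0.20.

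Of the shelterin genes, which protect telomeres, Acd had 34.6 and 37.6 TPM in the control libraries, 21.2 and 17.8 TPM in those of Rbbp4 OE and 26.8 and 25.03 TPM in those of Rbbp7 OE, and it fell in Rbbp4 OE (log2 fold change -0.86, SE 0.11, limma adjusted p = 0.0123). Acd shares 33.3% of its exonic bases with the opposite-strand gene Carmil2. Terf2, with 28.9 and 25.5 TPM in the controls, with 21.4 and 20.2 TPM in Rbbp4 OE libraries and 22.97 and 24.03 TPM in Rbbp7 OE libraries, did not pass (log2 fold change -0.37, SE 0.097, limma adjusted p = 0.0634), nor did Terf2ip (log2 fold change -0.15, SE 0.14, limma adjusted p = 0.542), whose sign turned without control replicate 2.

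Genes of the Golgi, endosomes and vesicle traffic had the largest share of lower members among the lists. Of 18 members, 15 were lower in Rbbp4 OE and 0 in Rbbp7 OE, with medians of -0.60 and -0.35. In Rbbp4 OE all 18 had both libraries below both controls (beside 37.1% of all genes), and 17 did in Rbbp7 OE (beside 23.4%). Arl2bp, a binding partner of the small GTPase ARL2 (ENSMUSG00000031776.17, chr8:94666600-94674425), had 79.4 and 81.3 TPM in the control libraries, 27.3 and 31.6 TPM in those of Rbbp4 OE and 32.7 and 48.3 TPM in those of Rbbp7 OE. This was the largest decrease of any member that passed in Rbbp4 OE (log2 fold change -1.42, SE 0.18, limma adjusted p = 0.0116). The Rbbp7 OE libraries were low as well but far apart, and they did not pass (log2 fold change -0.997, SE 0.18, limma adjusted p = 0.0977). Subunits of the ESCRT machinery that cuts membrane necks followed, with Chmp1a at 79.7 and 79.9 TPM in the controls, with 47.7 and 43.6 TPM in Rbbp4 OE libraries and 52.7 and 56.7 TPM in Rbbp7 OE libraries, and a decrease in Rbbp4 OE (log2 fold change -0.79, SE 0.076, limma adjusted p = 0.00703). Vps4a (-0.68) and Ist1 (-0.62) of the same machinery were also lower in Rbbp4 OE. The autophagy genes Gabarapl2 and Map1lc3b, which encode ubiquitin-like proteins of the autophagosome, had log2 fold changes of -0.63 and -0.34 in Rbbp4 OE, both past the test. Gabarapl2 had 338 and 313 TPM in the control libraries, 224 and 196 TPM in those of Rbbp4 OE and 235 and 244 TPM in those of Rbbp7 OE.

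RNA processing and translation genes were lower as well. Of 13 members for mRNA processing, export and decay, 10 were lower in Rbbp4 OE and 0 in Rbbp7 OE, with medians of -0.48 and -0.25. Cnot1, the scaffold of the CCR4-NOT deadenylase, had 145 and 193 TPM in the controls, with 90.2 and 71.8 TPM in Rbbp4 OE libraries and 129 and 135 TPM in Rbbp7 OE libraries. The controls were far apart, yet both Rbbp4 OE libraries were well below them, and Cnot1 fell in Rbbp4 OE (log2 fold change -1.04, SE 0.16, limma adjusted p = 0.0176) but did not pass in Rbbp7 OE (log2 fold change -0.34, SE 0.16, limma adjusted p = 0.383). Rbm34, an RNA-binding protein, had 28.9 and 31.3 TPM in the control libraries, 14.8 and 15.04 TPM in those of Rbbp4 OE and 21.9 and 21.4 TPM in those of Rbbp7 OE, and it fell in Rbbp4 OE (log2 fold change -0.96, SE 0.087, limma adjusted p = 0.00577). Sf3b3, a core subunit of the spliceosome's SF3b complex, had 144 and 161 TPM in the controls, with 115 and 114 TPM in Rbbp4 OE libraries and 128 and 128 TPM in Rbbp7 OE libraries, and it fell by less (log2 fold change -0.41, SE 0.067, limma adjusted p = 0.0205).

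In the list of tRNA, rRNA and translation factors, 7 of 11 members were lower in Rbbp4 OE and 0 in Rbbp7 OE. The medians were -0.51 and -0.30. The list and the 7 include Nae1 (log2 fold change -0.64), a NEDD8 activation gene that is none of these. The alanyl-tRNA synthetase gene Aars had 186 and 207 TPM in the control libraries, 144 and 142 TPM in those of Rbbp4 OE and 158 and 161 TPM in those of Rbbp7 OE (log2 fold change -0.45, SE 0.064, limma adjusted p = 0.0149 in Rbbp4 OE). Kars, which charges tRNA with lysine, had 372 and 376 TPM in the controls, with 307 and 321 TPM in Rbbp4 OE libraries and 339 and 325 TPM in Rbbp7 OE libraries, the smallest decrease of the 98 (log2 fold change -0.25, SE 0.048, limma adjusted p = 0.0296). The ribosome assembly factors Nob1, Nip7 and Utp4 were all lower in Rbbp4 OE, at -0.54, -0.43 and -0.51. Ogfod1, an oxygenase that hydroxylates a ribosomal protein (ENSMUSG00000033009.15, chr8:94037198-94067921), had 15.1 and 18.9 TPM in the control libraries, 6.94 and 6.64 TPM in those of Rbbp4 OE and 12.5 and 12.4 TPM in those of Rbbp7 OE. Its Rbbp4 OE libraries were lowest by a wide margin, and it was one of the 3 members past the study's thresholds (log2 fold change -1.20, SE 0.13, limma adjusted p = 0.00884). In Rbbp7 OE it did not pass (log2 fold change -0.41, SE 0.13, limma adjusted p = 0.234).

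Another was Ttc13, a tetratricopeptide repeat protein (ENSMUSG00000037300.19, chr8:124671332-124721983), with 34.3 and 34.8 TPM in the controls, with 16.02 and 16.3 TPM in Rbbp4 OE libraries and 20.6 and 19.8 TPM in Rbbp7 OE libraries. Every group was tight and apart from the others. Ttc13 fell in Rbbp4 OE (log2 fold change -1.05, SE 0.081, limma adjusted p = 0.00461) and in Rbbp7 OE (log2 fold change -0.75, SE 0.081, limma adjusted p = 0.0329).

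**Figure D4:**
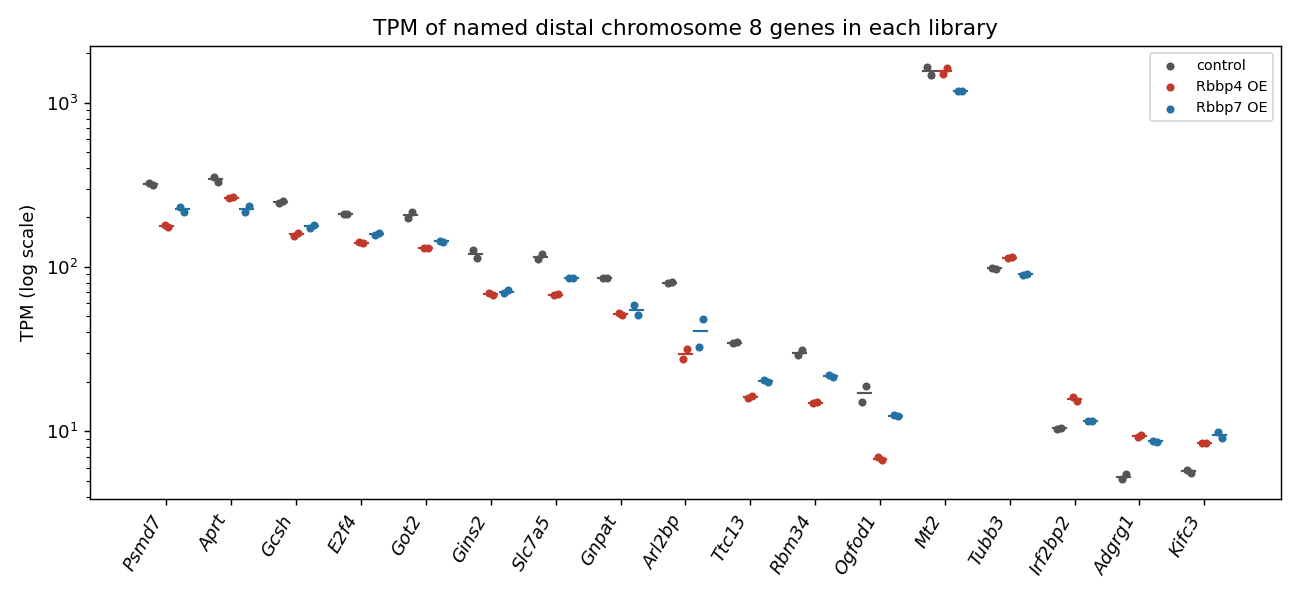
TPM (vertical axis, log scale) of 17 named members in each library (points) with group means (bars). The first 12 genes lie below control in both lines, Mt2 has its lowest values in Rbbp7 OE, and Irf2bp2, Adgrg1 and Kifc3 lie above control.

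Transporters and surface proteins were mixed. Slc7a5, the large neutral amino acid transporter (ENSMUSG00000040010.10, chr8:121881150-121907694), had 111 and 120.2 TPM in the control libraries, 67.1 and 68.8 TPM in those of Rbbp4 OE and 85.1 and 85.7 TPM in those of Rbbp7 OE, and it fell in Rbbp4 OE (log2 fold change -0.76, SE 0.064, limma adjusted p = 0.00536), and its value in Rbbp7 OE did not pass (log2 fold change -0.43, SE 0.064, limma adjusted p = 0.0689). Of 7 transporter members, 4 were lower in Rbbp4 OE (Slc38a7, Slc7a6, Slc7a5 and Abcb10) and 0 in Rbbp7 OE, with medians of -0.76 and -0.27. Itgb1, the integrin beta-1 chain near the end of the chromosome (chr8:128685654-128733200), had 37.97 and 42.8 TPM in the controls, with 20.7 and 19.7 TPM in Rbbp4 OE libraries and 27.2 and 24.2 TPM in Rbbp7 OE libraries, and it fell in Rbbp4 OE (log2 fold change -0.96, SE 0.1, limma adjusted p = 0.00869). Cdh1, which encodes E-cadherin, the main adhesion protein of mESC colonies (ENSMUSG00000000303.12, chr8:106603351-106670246), had 116 and 124.3 TPM in the control libraries, 125 and 128 TPM in those of Rbbp4 OE and 123.9 and 127 TPM in those of Rbbp7 OE. One control library lay under all the others, and Cdh1 did not pass (log2 fold change 0.08, SE 0.06, limma adjusted p = 0.429 in Rbbp4 OE, and log2 fold change 0.07, SE 0.06, limma adjusted p = 0.645 in Rbbp7 OE). Cdh3 had 4.69 and 4.02 TPM in the controls, with 4.37 and 4.25 TPM in Rbbp4 OE libraries and 3.49 and 3.94 TPM in Rbbp7 OE libraries, and it did not pass either, and its sign in Rbbp4 OE turned under both rescalings. Only 3 of the 8 listed cadherin genes were members (Cdh1, Cdh3 and Cdh13), with medians of 0.08 and 0.07 and 0 past the test. Cdh13 passed the minimum only through Rbbp7 OE replicate 1, and the other members of the list had 0.07 (Cdh1) and -0.18 (Cdh3) in Rbbp7 OE.

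Among the metallothioneins, small metal-binding proteins, Mt1 and Mt2 lay near the control level in Rbbp4 OE. Mt2 had 1658 and 1473 TPM in the control libraries, 1490.2 and 1627 TPM in those of Rbbp4 OE and 1179 and 1173 TPM in those of Rbbp7 OE, and Mt1 had 1142 and 979 TPM in the controls, with 1030.5 and 1083 TPM in Rbbp4 OE libraries and 809 and 789 TPM in Rbbp7 OE libraries. For both genes the Rbbp4 OE libraries overlapped the controls and the Rbbp7 OE libraries were below all others. Neither passed in Rbbp4 OE (log2 fold changes -0.01 and 0.00, with signs that turned under median-of-ratios scaling) or in Rbbp7 OE (Mt2 log2 fold change -0.41, SE 0.069, limma adjusted p = 0.0886, and Mt1 log2 fold change -0.40, SE 0.076, limma adjusted p = 0.106). The direct differences between the lines, 0.40 and 0.40, did not pass (limma adjusted p = 0.0972 and 0.108). Mt2 shares 73.5% of its exonic bases with the opposite-strand gene Gm45774. Mt3 had 2.47 and 3.46 TPM in the control libraries, 2.19 and 1.73 TPM in those of Rbbp4 OE and 1.91 and 0.66 TPM in those of Rbbp7 OE, below both controls in every overexpression library, and it did not pass (log2 fold changes -0.41 and -0.84, limma adjusted p = 0.424 and 0.284). Thus 3 of the 4 listed genes were members, with medians of -0.01 and -0.41.

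Transcription and chromatin regulators had 22 members, of which 7 were lower and 1 higher in Rbbp4 OE and 0 passed in Rbbp7 OE, with medians of -0.29 and -0.17. Ctcf, the insulator protein that anchors chromatin loops, had 68.2 and 88.1 TPM in the controls, with 50.3 and 46.8 TPM in Rbbp4 OE libraries and 60.9 and 67.6 TPM in Rbbp7 OE libraries, and it fell in Rbbp4 OE (log2 fold change -0.67, SE 0.13, limma adjusted p = 0.0307). Cbfb, the partner of RUNX factors, had 37.02 and 45.3 TPM in the control libraries, 21.9 and 20.2 TPM in those of Rbbp4 OE and 30.2 and 26.5 TPM in those of Rbbp7 OE, and it fell further (log2 fold change -0.93, SE 0.13, limma adjusted p = 0.0136). In Rbbp7 OE neither passed (-0.27 and -0.52 on the log2 scale). Ankrd11, a chromatin regulator with ankyrin repeats, had 40.4 and 55.4 TPM in the controls, with 47.3 and 48.9 TPM in Rbbp4 OE libraries and 42.7 and 45.8 TPM in Rbbp7 OE libraries, with overlapping groups and a sign that turned with single libraries left out. Chd9, the most proximal member, had 3.59 and 4.20 TPM in the control libraries, 2.22 and 9.25 TPM in those of Rbbp4 OE and 4.75 and 2.99 TPM in those of Rbbp7 OE. A single library, Rbbp4 OE replicate 2, was high for Chd9, and without it the log2 fold change was -0.60 in place of 0.23.

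Irf2bp2, a transcriptional corepressor (ENSMUSG00000051495.7, chr8:126588296-126593986), was one of the 3 members that were higher. It had 10.4 and 10.5 TPM in the controls, with 16.2 and 15.3 TPM in Rbbp4 OE libraries and 11.5 and 11.5 TPM in Rbbp7 OE libraries, so the Rbbp4 OE libraries stood above all others, and it rose in Rbbp4 OE (log2 fold change 0.55, SE 0.098, limma adjusted p = 0.0246). In Rbbp7 OE it did not pass (log2 fold change 0.13, SE 0.098, limma adjusted p = 0.59). Adgrg1, an adhesion G protein-coupled receptor, had 5.13 and 5.46 TPM in the control libraries, 9.22 and 9.54 TPM in those of Rbbp4 OE and 8.69 and 8.66 TPM in those of Rbbp7 OE, and Kifc3, a minus-end-directed kinesin, had 5.84 and 5.58 TPM in the controls, with 8.45 and 8.51 TPM in Rbbp4 OE libraries and 9.84 and 9.10 TPM in Rbbp7 OE libraries. All 4 overexpression libraries were above both controls for these neighbouring genes. Adgrg1 rose in Rbbp4 OE (log2 fold change 0.72, SE 0.11, limma adjusted p = 0.0191), as did Kifc3 (log2 fold change 0.50, SE 0.12, limma adjusted p = 0.0475). Their values in Rbbp7 OE, 0.62 and 0.64, did not pass (limma adjusted p = 0.104 and 0.101). Ccdc102a (0.46), next to Adgrg1, and Tppp3 (0.41), a tubulin polymerization-promoting protein, had the next largest positive values in Rbbp4 OE among members of at least 5 TPM whose groups did not overlap, and did not pass. Exoc3l was among the largest in Rbbp7 OE (0.55) and did not pass either. Tubb3, a neuronal beta-tubulin, had 98.99 and 96.8 TPM in the control libraries, 113 and 114 TPM in those of Rbbp4 OE and 89.5 and 91.00 TPM in those of Rbbp7 OE, with Rbbp4 OE above and Rbbp7 OE below the controls, and did not pass in either line.

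Mitochondrial import and respiratory assembly genes had 5 members, of which 3 were lower in Rbbp4 OE (Ciapin1, Spg7 and Tomm20) and 0 in Rbbp7 OE, with medians of -0.44 and -0.31. Tomm20, a receptor of the outer membrane's import channel, had 172 and 162 TPM in the controls, with 128 and 130.5 TPM in Rbbp4 OE libraries and 149 and 158 TPM in Rbbp7 OE libraries, and it fell in Rbbp4 OE (log2 fold change -0.37, SE 0.06, limma adjusted p = 0.0202). The 134 members that were in none of the lists had medians of -0.27 and -0.18, with 31 lower and 2 higher in Rbbp4 OE and 2 lower in Rbbp7 OE.

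**Figure D5:**
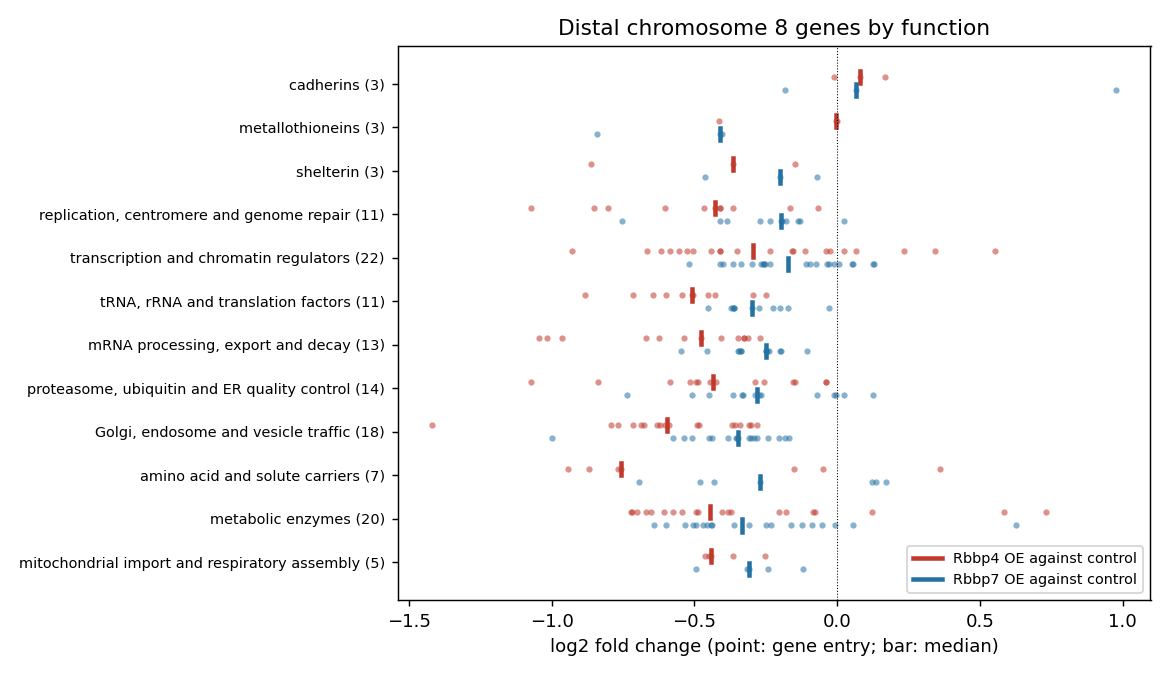
Log2 fold change against control (horizontal axis) of the members of each functional list (rows, with the number of gene entries in brackets), for Rbbp4 OE (upper points of each row) and Rbbp7 OE (lower points). Vertical bars are list medians, which are below 0 in both lines for the 10 lists from shelterin downward. The cadherin medians lie at 0.08 and 0.07, and the metallothionein medians at -0.01 and -0.41.

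The neighbours of the pair of genes left out by name were examined in the same way. The closest members before Plekhg4 were Fhod1, with 7.42 and 8.91 TPM in the control libraries, 7.85 and 7.41 TPM in those of Rbbp4 OE and 7.42 and 7.33 TPM in those of Rbbp7 OE, and Slc9a5, with log2 fold changes of -0.05 and 0.14. After it came Tppp3, with log2 fold changes of 0.41 and 0.46, and Zdhhc1, with 0.01 and 0.10. None of these 4 genes passed in either line, and the signs of Fhod1 and Slc9a5 in Rbbp4 OE turned under median-of-ratios scaling. Within 500 kb of Plekhg4, 22 of 29 members were below 0 in Rbbp4 OE, beside 79.5% of the members and 59.0% of all genes, with medians of -0.27 and -0.20. Around Calb2, Tat was listed at 0 in the controls and Zfp612 had at most 0.80 TPM, while Cmtr2, a cap methyltransferase, had 3.45 and 3.55 TPM in the controls, with 1.95 and 2.75 TPM in Rbbp4 OE libraries and 3.11 and 2.57 TPM in Rbbp7 OE libraries, and it did not pass. Vac14, a scaffold of phosphoinositide synthesis, fell in Rbbp4 OE (log2 fold change -0.37, SE 0.089, limma adjusted p = 0.0496). Within 500 kb of Calb2, 6 of 9 members were below 0 in Rbbp4 OE, beside the same shares, with medians of -0.37 and -0.23. Among the 9 was Tat, at 1.41 in Rbbp4 OE, which reached the minimum mean TPM only through Rbbp4 OE replicate 2. So few genes do not tell whether this share differs from that of the members.

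Shared exons and base composition were set beside the pattern. At least 10% of the exonic bases of 32 members overlapped another tested gene, 11 of them on the same strand. The 232 members without such overlap had medians of -0.37 and -0.25. The members' transcripts had a median GC content of 53.6%, against 50.2% over all genes, and the protein-coding genes of other chromosomes within the members' interquartile GC range had medians of -0.05 and 0.00371. With GC content and transcript length corrected for, the member medians were -0.39 and -0.28.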

How the data were processed

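Poly(A) RNA of 6 libraries was analysed, 2 each of control, Rbbp4 OE and Rbbp7 OE cells, grouped by the genotype label. The authors used Trim_galore for trimming, STAR for alignment to mm10 and RSEM with a GENCODE annotation for quantification, and they deposited TPM values, 1 table per library. TPM is scaled to a fixed total, so a strong change in abundant genes shifts all others, and depth is not kept. GENCODE M21 (GRCm38) gave names and positions and matched 55141 of 55401 gene identifiers.

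The study tested counts. Since TPM values are not counts, limma-trend (limma 3.58.1, R 4.3.3) was run on log2(TPM + 1) over the 14156 genes with a mean of at least 0.5 TPM, with all 3 groups in 1 fit (3 residual degrees of freedom), and p-values were adjusted over all genes by Benjamini-Hochberg. Calls used the study's thresholds (adjusted p under 0.01, fold over 2), and an adjusted p under 0.05 without a fold. The fit was tested on simulated data.

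Named genes were members past either threshold, the 5 largest values in each direction per contrast among members of at least 5 TPM whose groups did not overlap, neighbours of Plekhg4 and Calb2, and a fixed list of genes of known function. Of the members past an adjusted p under 0.05 in Rbbp4 OE alone, examples are named and the rest counted. A few results of single genes are not reported here. The members and lists were chosen with earlier results of these data known. The liver markers, and the alternatives that left out single libraries for overlap counts or the pair of libraries with liver and fibroblast transcripts, were added after seeing the data. Alternatives were other pseudocounts, filters, scalings, boundaries and fits, a replicate block, a GC and length correction, and leaving out each library.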

Additional observations from a re-analysis of the deposited data

Results flagged for a closer look

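The Chtf8 entry ENSMUSG00000117748.1 differed between the lines in the direct test, with a log2 difference of -1.10 for Rbbp4 OE minus Rbbp7 OE (limma adjusted p = 0.0239, lower in 2 of 2 libraries). It shares exons with the other Chtf8 entry, and the part of the shared reads in this value was not tested. With 2 libraries a group, no test for single libraries that lie apart could be made.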

How the results depend on the processing

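Over 12 summary results, 207 values were recomputed under other settings. Only the medians could turn direction, and none did. In all, 143 of the values stayed within 1.5 times the reported count or within the spread between replicates of the reported median.

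In Rbbp4 OE, the 3 members past both thresholds became 6 with a pseudocount of 0.1, 0 with a pseudocount of 5, 0 without the filter, 5 when a mean of 5 TPM was required, 5 with protein-coding genes only, 1 under median-of-ratios scaling, 1 under quantile normalization, 0 in 2-group fits, 0 against a fold of 1.5, 5 with the region from 85000000, and 0 to 1 with 1 library left out. The 101 members at an adjusted p under 0.05 became 53 without the filter, 19 in 2-group fits, and 0 to 81 with 1 library left out. The median of -0.37 became -0.41 with a pseudocount of 0.1, -0.27 with 5, -0.43 when a mean of 5 TPM was required, -0.28 under median-of-ratios scaling and -0.29 under quantile normalization, and was -0.43 to -0.32 with 1 library left out.

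In Rbbp7 OE, the 8 members became 19 when a mean of 5 TPM was required, 14 with protein-coding genes only, 2 under median-of-ratios scaling, 0 without the filter, 0 in 2-group fits and 0 to 2 with 1 library left out. The median of -0.25 became -0.18 with a pseudocount of 5 and was -0.29 to -0.18 with 1 library left out. Between the lines, the 1 member became 2 when a mean of 5 TPM was required, 0 under median-of-ratios scaling, 0 without the filter, 0 in 2-group fits and 0 to 2 with 1 library left out, the 0 past both thresholds became 0 to 1 with 1 library left out, and the median of -0.13 became -0.0406 under median-of-ratios scaling and -0.0440 under quantile normalization. Without Rbbp4 OE replicate 2 and Rbbp7 OE replicate 1 together, an alternative chosen after seeing the data, the counts at an adjusted p under 0.05 were 0, 0 and 0 while the medians were -0.39, -0.25 and -0.13.

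Replicate numbers were not treated as a pairing, since deviations of same-numbered libraries correlated at -0.0308 to 0.0336 over 14156 genes. The labels do not say whether same-numbered libraries were prepared together. With a replicate block the 101 members became 64, the 8 became 0, the 1 became 0, and the 3 past both thresholds became 0. Of 34 log2 fold changes of members (past an adjusted p under 0.01 or higher in Rbbp4 OE, or past 0.05 in another contrast), none turned its direction, and 34 of 34 were past an adjusted p under 0.05 with a pseudocount of 0.1, 27 under median-of-ratios scaling, 30 after the GC and length correction, and 0 without Rbbp4 OE replicate 2. Fits with fewer libraries or 2 groups have fewer residual degrees of freedom, and their lower counts also follow from that. Totals and lower counts of members whose libraries did not overlap stayed within 1.5 times the reported ones under each of 12 settings, while the higher counts of 29, 20 and 33 ran from 13 to 46, 10 to 48 and 21 to 60. TPM keeps no depth, so precision at low levels is unknown.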
